A study of Mus musculus with 18 samples.

Results

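The genes described here are 10 feedback inhibitors and transcriptional targets of the FGF-ERK pathway, *Spry1*, *Spry2*, *Spry4*, *Spred1*, *Spred2*, *Dusp4*, *Dusp6*, *Etv4*, *Etv5* and *Egr1*. They were chosen by name as a readout of receptor signaling, with earlier results of these data known, and all 10 were found among the 38243 genes counted. RNA-seq was performed on tissue cut out by laser capture microdissection from 6 female C57BL/6 embryos (C57BL6/J in the study's methods) at embryonic day 16.5 (E16.5). Of these, 3 were *Fgfr2+/S252W* embryos, a model of Apert syndrome with 1 mutant and 1 wild-type allele of the receptor, and 3 were control littermates (*Fgfr2+/+*). Each embryo gave 1 library of mandibular bone, 1 of Meckel's cartilage (MC) and 1 of mandibular condylar cartilage (MCC), which makes 18 libraries in 6 groups of 3. Which libraries share an embryo was taken from the sample codes, and deviations of the tissues so joined correlated at only -0.089 to 0.11. The design asks whether the mutation changes these genes in any of the 3 tissues, and how their levels differ between bone and the cartilages.

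FGF receptors such as FGFR2 activate the RAS-RAF-MEK-ERK kinase cascade, which drives proliferation and differentiation in the osteogenic and chondrogenic lineages. Active ERK induces genes that in turn dampen the cascade. Sprouty and SPRED proteins act on RAS and RAF, and the phosphatases DUSP4 and DUSP6 remove phosphate from ERK itself. The ETS factors ETV4 and ETV5 and the zinc finger factor EGR1 carry the signal to further target genes.

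The libraries held 8218548 to 15585778 counted fragments. Levels are given as FPKM, computed from the counts after TMM normalization and divided by exon length, so that genes can be compared with each other. The labels were checked against marker genes. The summed CPM of 7 chondrocyte markers was 196 to 532 in bone, 409 to 9767 in MC and 24565 to 32074 in MCC, and that of 8 osteoblast markers was 13985 to 32297 in bone, 1579 to 4018 in MC and 4934 to 18704 in MCC. The library labelled *Fgfr2+/+* MC replicate 1 had the lowest chondrocyte sum of the MC libraries, 409 CPM. This sum lies within the range of the bone libraries. Of the 7 markers, *Acan* (97.8 CPM), *Col9a1* (25.9 CPM) and *Matn1* (0.279 CPM) were above every bone library in it. *Col2a1* and *Matn3* were within the bone range, and *Sox9* and *Col11a2* were below it. The osteoblast sum of the same library, 4018 CPM, was the highest of MC. Differences of the members in MC that changed sign, call or size by more than 1.5 times without this library are given without it too. Because these are bulk libraries, fewer cells of a type and less RNA per cell cannot be told apart.

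The promoters of 6 of the 10 genes were found in the RefSeq table of promoters (GRCm38.p6), each as the 250 bases before and the first 50 bases after a start site. *Dusp6*, *Spred1* and *Spry1* are shown up to the start site, 5′ to 3′ on the plus strand, since *Dusp6* and *Spry1* were low in MCC while *Spred1* was not. Capitals mark the ETS core CGGAAG on either strand.
*Dusp6* chr10:99262981-99263230: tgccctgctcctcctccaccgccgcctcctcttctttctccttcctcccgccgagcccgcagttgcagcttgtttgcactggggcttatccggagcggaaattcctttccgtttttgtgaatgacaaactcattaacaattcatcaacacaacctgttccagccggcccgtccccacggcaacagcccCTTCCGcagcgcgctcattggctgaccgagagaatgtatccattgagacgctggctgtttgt
*Spred1* chr2:117120821-117121070: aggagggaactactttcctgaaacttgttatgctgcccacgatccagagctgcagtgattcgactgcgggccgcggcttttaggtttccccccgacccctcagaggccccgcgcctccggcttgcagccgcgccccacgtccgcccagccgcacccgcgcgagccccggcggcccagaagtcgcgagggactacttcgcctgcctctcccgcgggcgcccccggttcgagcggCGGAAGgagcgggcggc
*Spry1* chr3:37639697-37639946: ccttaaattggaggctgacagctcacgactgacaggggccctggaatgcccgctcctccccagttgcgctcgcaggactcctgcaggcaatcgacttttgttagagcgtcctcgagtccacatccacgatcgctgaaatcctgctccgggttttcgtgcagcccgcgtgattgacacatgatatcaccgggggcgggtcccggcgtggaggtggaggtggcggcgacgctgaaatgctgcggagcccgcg

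The ETS core CGGAAG, read on both strands, occurred in 16.9% of all 32851 promoters of this length. Among the members it occurred 62 bases before the start of *Dusp6*, 43 bases before that of *Spred2*, and in *Spred1* 17 bases before the start and once more just after it. No match was found in the windows of *Spry1*, *Spry2* or *Etv5*. None of the 6 genes held the longer ETS site CCGGAAGT (3.89% of all promoters), the AP-1 site TGANTCA (7.81%), the CRE site TGACGTCA (1.79%), the EGR site GCGNGGGCG (5.55%) or a CArG box (1.63%). The RefSeq start of *Spred1* lies 303 bases before the start of the gene in the annotation used for counting, and those of *Dusp6* and *Spry1* lie at the same base. These matches describe the sequence only.

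In mandibular bone the order of mean levels was *Spred1*, *Egr1*, *Etv5*, *Spred2*, *Dusp6*, *Spry4*, *Dusp4*, *Spry1*, *Spry2* and *Etv4*, from 13.6 ± 2.02 FPKM (SD, n = 6) for *Spred1* to 0.189 ± 0.0699 FPKM for *Etv4*. The ranges of neighbors in this order overlapped, except that every *Spry2* level was above every *Etv4* level. In MC the highest means were those of *Spred2* (8.55 ± 1.58 FPKM) and *Spred1* (7.94 ± 0.905 FPKM), whose ranges overlapped. In MCC *Spred1* stood alone, at 12.3 ± 1.99 FPKM with no overlap with the next gene, *Etv5* (4.32 ± 2.10 FPKM). The other end of the order in MCC was held by *Spry1*, *Dusp4* and *Etv4*, each at or below 0.299 FPKM in all 6 libraries. The plot of levels by library shows each value.

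**Figure D1:**
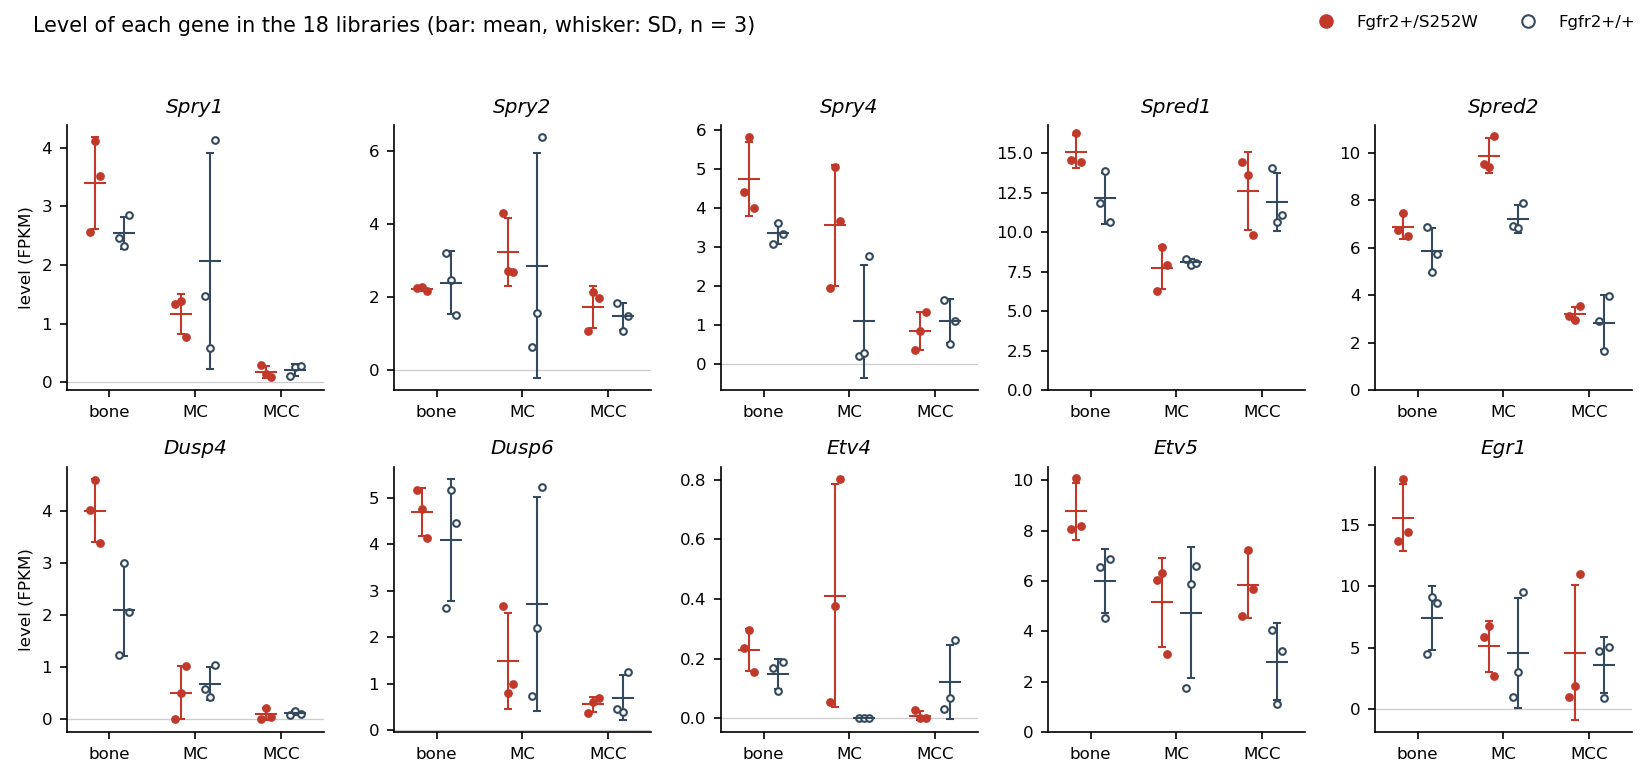
Level in FPKM (linear vertical axes, one per gene) of the 10 genes in bone, MC and MCC, with a filled point for each *Fgfr2+/S252W* library and an open point for each *Fgfr2+/+* library. The horizontal bar is the mean and the whisker the SD of 3 embryos. *Egr1*, *Etv5*, *Dusp4*, *Spred1* and *Spry4* show no overlap between genotypes in bone, and every gene but *Spred1* has its lowest mean over both genotypes in MCC.

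The filter used FPKM computed without TMM factors, which can differ from the levels given here. A gene was tested if this FPKM exceeded 1 in 9 or more of the 18 libraries, which left 11469 genes. *Spry2*, *Spry4*, *Spred1*, *Spred2*, *Dusp6*, *Etv5* and *Egr1* were among them, and *Spry1*, *Dusp4* and *Etv4* were not. *Spry1* and *Dusp4* were tested with the wider filter filterByExpr, which kept 14881 genes, and *Etv4*, which met neither filter, is given as counts and with no filter. Genotypes were compared in each tissue with limma on all 18 libraries, as *Fgfr2+/S252W* minus *Fgfr2+/+* on the log2 scale, and the threshold was 0.05 for p-values adjusted by the Benjamini-Hochberg method.

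In mandibular bone, no member passed between the genotypes in limma (0 of 7), beside 0.0872% of all genes tested. At an unadjusted p below 0.05 there was 1 member, *Egr1*, beside 8.13% of all genes. DESeq2 and edgeR on the 18 libraries also called 0. The log2 difference was above 0 in 6 of the 7 genes, compared with 49.9% of all genes, and its median was 0.33 against -0.00074 over all genes. In 5 of the 10 genes, *Egr1*, *Dusp4*, *Etv5*, *Spry4* and *Spred1*, all 3 *Fgfr2+/S252W* libraries lay above all 3 *Fgfr2+/+* libraries. Of the 7 genes tested, 4 were separated in this way, compared with 10.7% of all genes.

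*Egr1*, an immediate early transcription factor (ENSMUSG00000038418, chromosome 18 from 34859823 to 34864984), had the largest difference of the tested members in bone. Its levels were 13.7, 18.8 and 14.4 FPKM in the *Fgfr2+/S252W* libraries and 4.45, 9.15 and 8.68 FPKM in the *Fgfr2+/+* libraries. The lowest mutant library was thus above the highest control library, and control replicate 1 was the lowest of all. The means were 15.6 ± 2.76 and 7.42 ± 2.59 FPKM (SD, n = 3), a ratio in the fit of 2.19 (95% interval 1.04 to 4.63). On the log2 scale this was 1.13 (SE 0.52, limma unadjusted p = 0.0406, adjusted p = 0.605). In a fit of the 6 bone libraries alone, where the median SD of a gene within a genotype was 0.22 log2 units compared with 0.48 in MC and 0.32 in MCC, the log2 difference was 1.12 (SE 0.23, limma adjusted p = 0.0455) and *Egr1* passed. It was then the only member to pass of the 9 tested, beside 1.14% of the 12322 genes kept. *Egr1* also passed in the bone libraries alone with edgeR (log2 1.07, adjusted p = 0.0388) and DESeq2 (log2 1.07, adjusted p = 0.000255), fits chosen after seeing the data. With 1 more bone library left out of the 6, the limma value stayed between 0.80 and 1.29 and passed only without *Fgfr2+/+* replicate 3 (adjusted p = 0.00672).

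*Dusp4*, a nuclear phosphatase of ERK (ENSMUSG00000031530, chromosome 8 from 34807297 to 34819894), had 215, 284 and 173 fragments in the *Fgfr2+/S252W* bone libraries and 50, 112 and 100 in the *Fgfr2+/+* bone libraries. As levels these were 4.02, 4.59 and 3.38 FPKM against 1.22, 3.00 and 2.06 FPKM, again with no overlap. Its log2 difference was 1.04 (SE 0.38, filterByExpr fit, limma adjusted p = 0.437) and 1.02 (SE 0.26, limma adjusted p = 0.0957) in the bone libraries alone, and it did not pass in either. In the bone libraries alone it did not pass with edgeR (log2 0.93, adjusted p = 0.118) and passed with DESeq2 (log2 0.93, adjusted p = 0.0293), with the replicate block (log2 0.94, limma adjusted p = 0.0301) and without *Fgfr2+/+* replicate 3 (log2 1.06, limma adjusted p = 0.0476), fits chosen after seeing the data. *Dusp6*, the cytoplasmic ERK phosphatase (ENSMUSG00000019960, chromosome 10 from 99263231 to 99267488), gave 5.16, 4.76 and 4.13 FPKM in mutant bone and 2.63, 5.17 and 4.46 FPKM in control bone. The genotypes overlapped for *Dusp6*, with a log2 difference of 0.25 (95% interval -0.45 to 0.95).

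*Etv5* (ENSMUSG00000013089, chromosome 16 from 22381309 to 22439719) had 8.07, 10.1 and 8.17 FPKM in the *Fgfr2+/S252W* bone libraries and 6.57, 4.54 and 6.88 FPKM in the *Fgfr2+/+* bone libraries. The 3 mutant values were above the 3 control values, with a log2 difference of 0.56 (SE 0.33, limma adjusted p = 0.728). *Etv5* did not pass in the bone libraries alone (log2 0.55, SE 0.17, limma adjusted p = 0.162), except without *Fgfr2+/+* replicate 3, where the value was 0.66 (limma adjusted p = 0.0358). Its paralog *Etv4* (ENSMUSG00000017724, chromosome 11 from 101769742 to 101785371) was at the limit of detection in bone, with 11, 16 and 7 fragments in the mutant and 6, 3 and 8 in the control libraries.

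*Spry4* (ENSMUSG00000024427, chromosome 18 from 38586268 to 38601268) had 4.42, 5.82 and 3.99 FPKM in *Fgfr2+/S252W* bone and 3.08, 3.63 and 3.35 FPKM in *Fgfr2+/+* bone. The span of *Spry4* holds 2 small genes on the opposite strand, *Gm27369* and *Gm27804*. Whether they overlap its exons, and so affect its counts, was not tested. *Spred1* (ENSMUSG00000027351, chromosome 2 from 117121374 to 117182279) had 14.6, 16.3 and 14.4 FPKM against 11.9, 13.9 and 10.7 FPKM. Both inhibitors were thus separated by genotype, but by small steps. Their log2 differences were 0.49 (SE 0.33, limma adjusted p = 0.771) for *Spry4* and 0.33 (SE 0.16, limma adjusted p = 0.625) for *Spred1*, and neither passed in the bone libraries alone (adjusted p = 0.203 and 0.270). *Spry1* (log2 0.41, SE 0.30, filterByExpr fit), *Spred2* (0.24, SE 0.19) and *Spry2* (-0.01, SE 0.42) overlapped between the genotypes. *Spry2* sat between 2.16 and 2.27 FPKM in the 3 mutant libraries, within the 1.49 to 3.21 FPKM of the controls.

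Other cell types also differed between the bone libraries of the 2 genotypes. The sum of 6 osteoclast markers was 1069 to 1417 CPM in *Fgfr2+/S252W* and 643 to 787 CPM in *Fgfr2+/+* bone, and that of 6 macrophage markers was 194 to 267 and 113 to 142 CPM. Nearly all of the macrophage sum came from *Csf1r* and *Cd68*, which osteoclasts also express, while *Adgre1* had 0.399 to 1.39 CPM in mutant and 2.48 to 3.15 CPM in control bone. The sum of 5 erythroid markers was 313 to 595 CPM in mutant and 1250 to 1503 CPM in control bone, that of 6 skeletal muscle markers 1.18 to 22.2 and 20.3 to 194 CPM, and that of 5 endothelial markers 206 to 215 and 189 to 257 CPM. The sum of 5 markers of tendon and perichondrium was 1019 to 1222 CPM in mutant and 1293 to 1955 CPM in control bone. Of the 8 osteoblast markers, 4 also separated the genotypes in bone. *Dmp1*, a matrix protein gene of osteocytes, was at 237 to 412 CPM in mutant and 91.5 to 194 CPM in control bone. *Bglap* (osteocalcin) was at 14.7 to 26.3 and 5.29 to 12.0 CPM and its neighbor copy *Bglap2* at 15.9 to 22.2 and 6.36 to 12.7 CPM, while *Ibsp* (bone sialoprotein) was lower in mutant bone, at 3547 to 4217 against 4965 to 7099 CPM. The sum of 7 chondrocyte markers was 417 to 532 CPM in mutant and 196 to 428 CPM in control bone. Of these, *Col2a1* (218 to 309 and 37.3 to 177 CPM) and *Sox9* (22.2 to 22.9 and 15.4 to 20.9 CPM) were higher in mutant bone without overlap, and *Acan* was lower (0.214 to 2.92 and 3.74 to 6.82 CPM). The part of these cells in the levels of *Egr1*, *Dusp4*, *Etv5*, *Spry4* and *Spred1* was not tested. The share of counts on *Gm42418*, a transcript that overlaps ribosomal RNA sequence, was 5.58 to 6.49% in mutant and 8.57 to 9.33% in control bone, without overlap. Mitochondrial genes took 23.4 to 23.6% in mutant bone and 36.0, 34.8 and 20.4% in control bone. With *Gm42418* and the mitochondrial genes left out, the log2 differences were 1.16 for *Egr1*, 0.58 for *Etv5*, 0.52 for *Spry4* and 0.35 for *Spred1*.

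**Figure D2:**
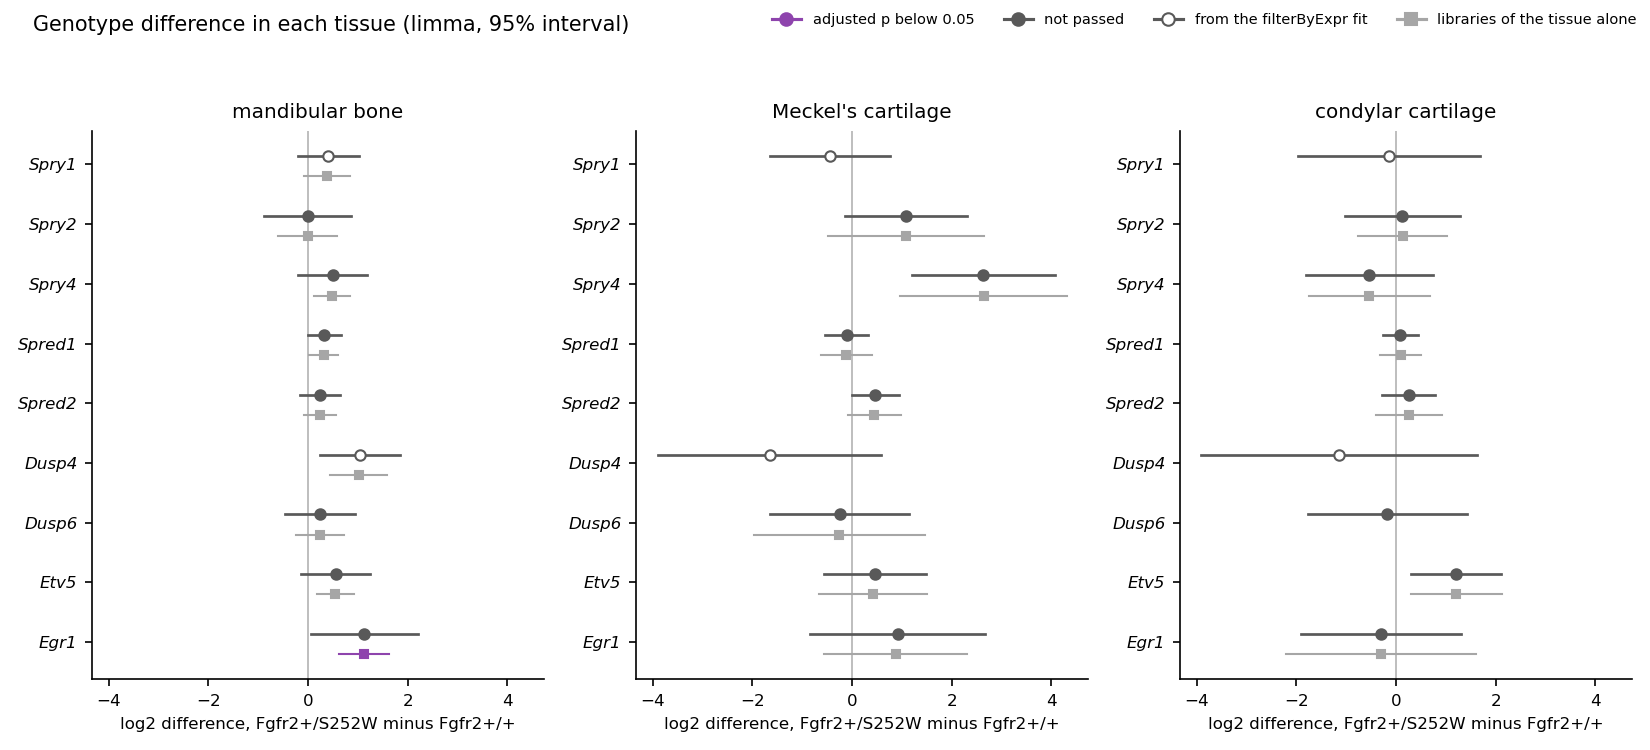
Log2 difference between *Fgfr2+/S252W* and *Fgfr2+/+* libraries (horizontal axis) with its 95% interval, for 9 genes in each tissue. Circles are the fit of 18 libraries, open where the gene was tested with the wider filter, squares are the fit of the libraries of one tissue, and *Egr1* in the bone libraries alone is the only value past the threshold.

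In MC no member passed (0 of 7, with 1 at an unadjusted p below 0.05), and neither did any other gene in limma (0% of 11469, with 15.4% at an unadjusted p below 0.05). DESeq2 called 423 and edgeR 90 genes, and both called 0 members. *Spry4* had the largest difference, with 1.95, 5.06 and 3.66 FPKM in the *Fgfr2+/S252W* libraries and 0.223, 0.292 and 2.78 FPKM in the *Fgfr2+/+* libraries. These levels rest on 67, 103 and 96 fragments in the mutant and 11, 7 and 68 in the control libraries. Control replicates 1 and 2 were low, while control replicate 3 lay within the mutant range. The log2 difference of *Spry4* was 2.64 (SE 0.69, limma unadjusted p = 0.00105, adjusted p = 0.105), and 1.74 (limma adjusted p = 0.320) without *Fgfr2+/+* replicate 1, the library with the lowest chondrocyte sum. Over all alternatives it stayed positive, between 1.72 and 3.59, with adjusted p-values from 0.0549 to 0.999.

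The levels of *Spred1*, 6.30 to 9.06 FPKM, and *Spred2* varied less between the MC libraries than those of the other tested members. *Spred2* (ENSMUSG00000045671, chromosome 11 from 19924375 to 20024026) had 9.55, 9.41 and 10.7 FPKM in the *Fgfr2+/S252W* and 6.94, 6.83 and 7.87 FPKM in the *Fgfr2+/+* libraries. Its genotypes did not overlap (6.71% of all genes lay higher in the mutants in this way), and its log2 difference was 0.46 (SE 0.23, limma adjusted p = 0.337), or 0.45 without *Fgfr2+/+* replicate 1. The macrophage marker sum also separated the genotypes in MC, at 72.1 to 111 CPM in mutant and 29.1 to 65.0 CPM in control libraries, as did the osteoclast sum, at 44.5 to 53.0 and 54.1 to 144 CPM. Their part in the *Spred2* levels was not tested. *Spry2* ranged from 0.624 to 6.38 FPKM within the control MC libraries alone, and *Egr1* from 0.953 to 9.57 FPKM. The log2 differences were 1.09 (SE 0.59) for *Spry2*, 0.92 (SE 0.84) for *Egr1*, 0.46 (SE 0.49) for *Etv5*, -0.10 (SE 0.21) for *Spred1* and -0.25 (SE 0.67) for *Dusp6*. Without *Fgfr2+/+* replicate 1, *Spry2* was at 0.041, *Dusp6* went to -1.25 (adjusted p = 0.358), *Spred1* to -0.062, and *Egr1* (-0.18) and *Etv5* (-0.32) changed sign. *Spry1* and *Dusp4* had at most 64 fragments in any MC library, and their log2 differences were -0.44 (SE 0.58) and -1.65 (SE 1.07) in the filterByExpr fit, or -0.47 and -1.72 without *Fgfr2+/+* replicate 1.

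In MCC again no member passed (0 of 7, with 1 at an unadjusted p below 0.05), nor did any gene in limma (0% of 11469, with 3.06% at an unadjusted p below 0.05). DESeq2 called 3 and edgeR 0 genes, and both called 0 members. *Etv5* gave 4.60, 7.23 and 5.69 FPKM in the *Fgfr2+/S252W* libraries and 4.07, 1.11 and 3.21 FPKM in the *Fgfr2+/+* libraries. All mutant values were above all control values (4.59% of all genes), and control replicate 2 was low. The log2 difference of *Etv5* was 1.21 (SE 0.43, limma unadjusted p = 0.0113, adjusted p = 0.998), and 0.64 without that control library. *Egr1* in MCC gave 0.926, 1.86 and 11 FPKM in mutants and 4.73, 0.889 and 5.07 FPKM in controls, a spread within the mutants alone of more than the whole control range. Its sign depended on the tool, at -0.31 (SE 0.77) with limma, 0.34 with edgeR and 0.38 with DESeq2. The other log2 differences in MCC were -0.54 (SE 0.61) for *Spry4*, 0.13 (SE 0.56) for *Spry2*, 0.09 (SE 0.17) for *Spred1*, 0.26 (SE 0.26) for *Spred2* and -0.18 (SE 0.77) for *Dusp6*.

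Whether the genotype difference itself varied between tissues was tested as an interaction, with the embryo as a term in the fit. No member passed between bone and MC (0 of 7, with 1 at an unadjusted p below 0.05, beside 0.0349% of all genes past the threshold and 9.12% at that p), bone and MCC (0 of 7, with 0 at an unadjusted p below 0.05, beside 0% and 2.86%) or MCC and MC (0 of 7, with 1 at an unadjusted p below 0.05, beside 0% and 10.3%) in limma, and edgeR and DESeq2 called 0 members. *Spry4* came nearest, with a genotype difference 1.86 log2 units smaller in bone than in MC (log2 -1.86, SE 0.76, limma adjusted p = 0.492) and smaller in MCC than in MC (log2 -2.83, SE 0.74, limma adjusted p = 0.194). Without *Fgfr2+/+* MC replicate 1 these values were -0.81 and -1.88. For *Egr1* the difference between bone and MC was 0.67 (SE 0.96), or 1.5 without that library, and between bone and MCC 1.33 (SE 0.89).

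Larger differences were found between the tissues, compared over both genotypes with the embryo as a term in the fit. Between bone and MCC, of the 7 members, 5 were higher in bone, *Dusp6*, *Spry4*, *Egr1*, *Spred2* and *Etv5*, and none was lower, beside 46.8% of all genes past the threshold (24.2% higher and 22.6% lower in bone). The median log2 difference of the 7 was 1.10, against -0.0027 over all genes.

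*Dusp6* showed the largest step among them. Its level was between 2.63 and 5.17 FPKM in the 6 bone libraries, with a median of 4.61, and between 0.383 and 1.26 FPKM in the 6 MCC libraries, with a median of 0.536. The tissues did not overlap, as for 31.9% of all genes, and bone was higher in 6 of 6 embryos, by a log2 difference of 2.85 (SE 0.36, limma adjusted p = 3.96e-06), a ratio of 7.23 (95% interval 4.30 to 12.2). *Spry4* had 3.08 to 5.82 FPKM in bone (median 3.81) and 0.379 to 1.65 FPKM in MCC (median 0.992), also without overlap. Its log2 difference was 2.13 (SE 0.34, limma adjusted p = 6.47e-05).

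*Egr1* ranged from 4.45 to 18.8 FPKM in bone (median 11.4) and from 0.889 to 11 FPKM in MCC (median 3.29). The tissues overlapped, since the lowest bone library, *Fgfr2+/+* replicate 1 at 4.45 FPKM, lay below *Fgfr2+/+* MCC replicates 1 (4.73 FPKM) and 3 (5.07 FPKM) and *Fgfr2+/S252W* MCC replicate 3 (11 FPKM). In that mutant MCC library the osteoblast marker sum of 18704 CPM and osteoclast sum of 48.0 CPM were the highest of MCC (the other MCC libraries were at 4934 to 12016 and 15.3 to 27.1 CPM). Its chondrocyte marker sum of 32074 CPM was the highest of MCC too (the others were at 24565 to 31383 CPM). *Egr1* was higher in bone in 5 of 6 embryos, all but *Fgfr2+/+* embryo 1 (log2 1.91, SE 0.45, limma adjusted p = 0.00189), and the difference was 2.44 without the mutant MCC library of replicate 3 (limma adjusted p = 9.33e-05). *Spred2* had 5.0 to 7.48 FPKM in bone (median 6.61) and 1.65 to 3.97 FPKM in MCC (median 3.05) (log2 1.10, SE 0.16, limma adjusted p = 1.91e-05), in 6 of 6 embryos and without overlap. *Etv5* was higher in bone in 6 of 6 embryos (log2 0.92, SE 0.26, limma adjusted p = 0.00691), although its ranges, 4.54 to 10.1 FPKM with a median of 7.48 in bone and 1.11 to 7.23 FPKM with a median of 4.33 in MCC, overlapped. All 5 stayed past the threshold with each library of the comparison left out in turn. Within 1 genotype, *Etv5* did not pass in *Fgfr2+/S252W* embryos alone (log2 0.62, adjusted p = 0.174), nor *Egr1* in *Fgfr2+/+* embryos alone (log2 1.25, adjusted p = 0.142).

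*Spred1* and *Spry2* did not pass between bone and MCC. *Spred1* had 10.7 to 16.3 FPKM in bone (median 14.1) and 9.81 to 14.4 FPKM in MCC (median 12.4), with a log2 difference of 0.14 and a 95% interval from -0.11 to 0.39. This interval is narrow beside the gaps of the other members. *Spry2* (ENSMUSG00000022114, chromosome 14 from 105891949 to 105896819) was higher in bone in 6 of 6 embryos, but by 0.51 (95% interval -0.31 to 1.34), and it passed only without *Fgfr2+/+* bone replicate 3 (log2 1.02, limma adjusted p = 0.0395).

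*Spry1* and *Dusp4*, tested with the wider filter, had even larger gaps between bone and MCC. *Spry1* (ENSMUSG00000037211, chromosome 3 from 37639947 to 37644598) had 92 to 270 fragments in the bone libraries and 2 to 13 in the MCC libraries, or 2.32 to 4.12 FPKM against 0.0883 to 0.299 FPKM. *Dusp4* had 50 to 284 fragments in bone and 0 to 7 in MCC. No library of MCC reached the lowest bone library for either gene. The log2 differences were 3.79 (SE 0.45, limma adjusted p = 2.22e-06) for *Spry1* and 4.79 (SE 0.62, limma adjusted p = 5.92e-06) for *Dusp4*, beside 48.8% of all 14881 genes past the threshold and 25.5% past it and higher in bone. With so few fragments in MCC, these fitted values depend on the count added before the log.

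**Figure D3:**
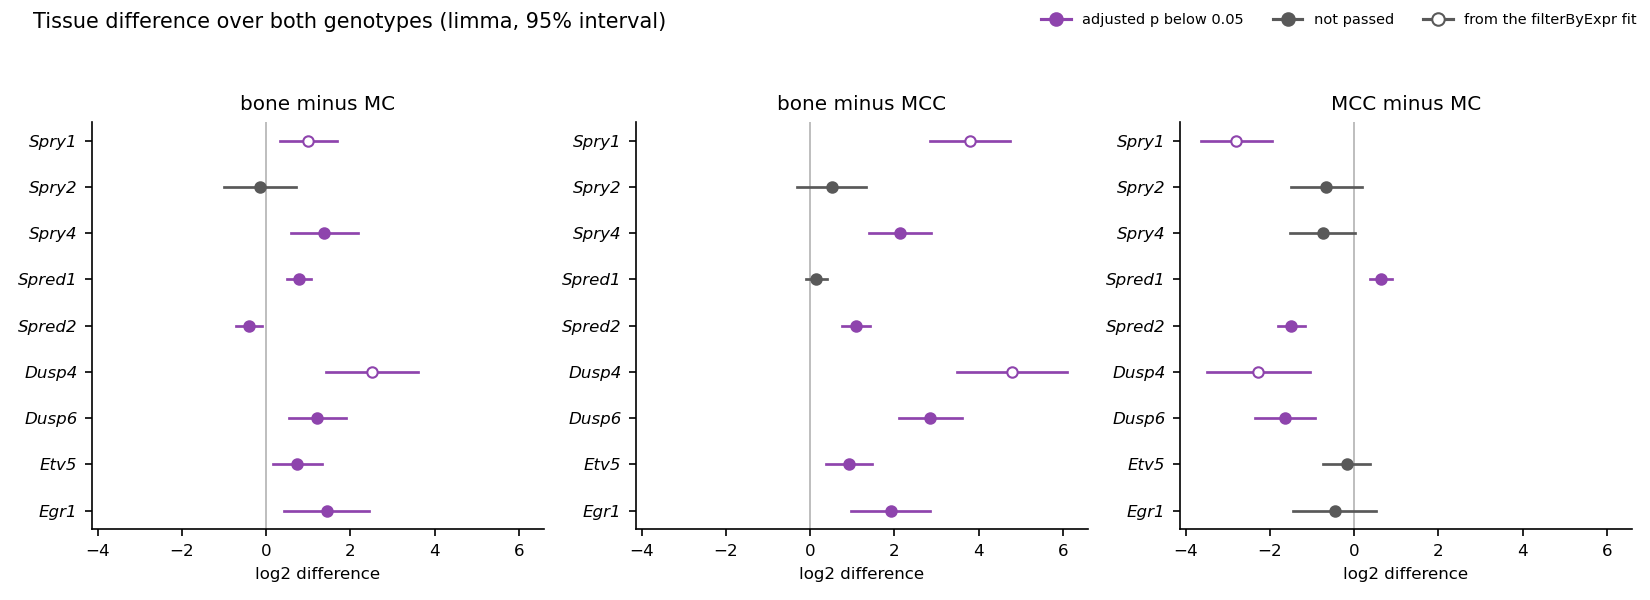
Log2 difference between tissues (horizontal axis) with its 95% interval for 9 genes, over the embryos of both genotypes. Purple values are past the threshold and open circles come from the fit with the wider filter. In the middle panel *Dusp4*, *Spry1*, *Dusp6* and *Spry4* lie farthest to the right, and *Spred1* lies next to 0.

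Between bone and MC, 5 of the 7 members were higher in bone, *Spry4*, *Egr1*, *Dusp6*, *Spred1* and *Etv5*, and *Spred2* was lower, beside 49.3% of all genes past the threshold (24.7% higher and 24.6% lower in bone). *Spred1* had 10.7 to 16.3 FPKM in bone and 6.30 to 9.06 FPKM in MC (median 8.0), without overlap, as for 24.9% of all genes, and was higher in bone in 6 of 6 embryos (log2 0.78, SE 0.13, limma adjusted p = 0.000143). *Dusp6* was higher in 5 of 6 embryos (log2 1.21, SE 0.32, limma adjusted p = 0.00501), with 0.731 to 5.23 FPKM in MC. Both passed with each library left out in turn, but *Dusp6* did not in *Fgfr2+/+* embryos alone (log2 0.75, adjusted p = 0.191).

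The other calls between bone and MC were less firm. *Spry4* was higher in bone in 6 of 6 embryos (log2 1.38, SE 0.38, limma adjusted p = 0.00604), but by 0.87 (adjusted p = 0.0546) without *Fgfr2+/+* MC replicate 1. In *Fgfr2+/+* embryos alone the *Spry4* difference was 2.31 (adjusted p = 0.0111) and in *Fgfr2+/S252W* embryos alone 0.45 (adjusted p = 0.413). *Egr1* (log2 1.44, SE 0.48, limma adjusted p = 0.0192) did not pass without that library (1.04, adjusted p = 0.0635) or without *Fgfr2+/S252W* MC replicate 3 (1.07, adjusted p = 0.0910), nor with edgeR (adjusted p = 0.0578) or DESeq2 (adjusted p = 0.0887), nor in *Fgfr2+/+* embryos alone (1.11, adjusted p = 0.251). *Etv5* (log2 0.74, SE 0.28, limma adjusted p = 0.0360) passed in 4 of 12 fits with 1 library left out and was at 0.29 (adjusted p = 0.252) without *Fgfr2+/+* MC replicate 1. *Etv5* did not pass with edgeR (0.56, adjusted p = 0.144) or DESeq2 (0.53, adjusted p = 0.147), or in *Fgfr2+/+* (adjusted p = 0.1996) or *Fgfr2+/S252W* embryos alone (adjusted p = 0.125). *Spred2* was lower in bone in 6 of 6 embryos (log2 -0.40, SE 0.15, limma adjusted p = 0.0299) and passed in 5 of 12 such fits, with adjusted p-values up to 0.116. It did not pass with filterByExpr (-0.36, adjusted p = 0.0534), with no filter (-0.25, adjusted p = 0.180), or in *Fgfr2+/+* (-0.29, adjusted p = 0.327) or *Fgfr2+/S252W* embryos alone (-0.52, adjusted p = 0.0504). *Spry2* ranged from 0.624 to 6.38 FPKM in MC and did not pass (log2 -0.15, SE 0.41, and -0.74 without *Fgfr2+/+* MC replicate 1, adjusted p = 0.0748). *Spry1* (log2 1.00, SE 0.32, limma adjusted p = 0.0170) and *Dusp4* (log2 2.51, SE 0.52, limma adjusted p = 0.000785) were higher in bone in the filterByExpr fit, beside 48.1% of all genes past the threshold and 24.5% past it and higher in bone. Without *Fgfr2+/S252W* bone replicate 3, *Spry1* did not pass (log2 0.88, adjusted p = 0.05004).

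Between the cartilages, *Spred1* was higher in MCC and *Dusp6* and *Spred2* were lower, while 57.7% of all genes passed (28.5% higher and 29.1% lower in MCC). *Spred2* had 6.83 to 10.7 FPKM in MC (median 8.64) and 1.65 to 3.97 FPKM in MCC, without overlap, as for 29.5% of all genes, and was lower in MCC in 6 of 6 embryos (log2 -1.50, SE 0.15, limma adjusted p = 2.37e-07). Thus *Spred2* was lowest in MCC, and the step between MC and bone, whose ranges overlapped, did not pass in every fit. *Spred1* took another order, high in bone and MCC and lower in MC, with a log2 difference of 0.64 (SE 0.13, limma adjusted p = 0.000358) between MCC and MC in 6 of 6 embryos. *Dusp6* was lower in MCC in 6 of 6 embryos (log2 -1.64, SE 0.34, limma adjusted p = 0.000510). *Spry2* (-0.66, SE 0.40), *Spry4* (-0.75, SE 0.37), *Etv5* (-0.18, SE 0.27) and *Egr1* (-0.47, SE 0.46) did not pass. Without *Fgfr2+/+* MC replicate 1, *Spry2* (-1.26, adjusted p = 0.00334), *Spry4* (-1.20, adjusted p = 0.00795) and *Etv5* (-0.59, adjusted p = 0.0179) also passed as lower in MCC. *Spry4* passed with sample quality weights over all 18 libraries (-1.10, adjusted p = 0.0154) and without *Fgfr2+/+* MCC replicate 1 (-1.07, adjusted p = 0.0290) as well, and *Egr1*, at -0.79 (adjusted p = 0.141) without that MC library, passed without *Fgfr2+/S252W* MCC replicate 3 (-1.05, adjusted p = 0.0341). In *Fgfr2+/S252W* embryos alone *Spry4* was lower in MCC than in MC (-2.16, adjusted p = 0.00106), and in *Fgfr2+/+* embryos alone it did not pass (0.67, adjusted p = 0.365). *Spry1* (-2.80, SE 0.40) and *Dusp4* (-2.28, SE 0.58) were lower in MCC in the filterByExpr fit (limma adjusted p = 1.39e-05 and 0.00276), beside 57.6% of all genes past the threshold and 29.6% past it and lower in MCC.

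Cell types other than bone and cartilage also differed between the tissues. The osteoclast sum was 643 to 1417 CPM in bone, 44.5 to 144 in MC and 15.3 to 48.0 in MCC. In the same order, the endothelial sum was 189 to 257, 20.6 to 84.4 and 5.36 to 23.6 CPM, and the macrophage sum 113 to 267, 29.1 to 111 and 3.41 to 11.6 CPM. The tendon and perichondrium sum was 1019 to 1955, 809 to 1285 and 169 to 345 CPM, and the erythroid sum 313 to 1503, 106 to 475 and 33.2 to 222 CPM. Among cartilage cells, the sum of 2 hypertrophic chondrocyte markers was 2.42 to 3.95 CPM in bone, 1.58 to 8.03 in MC and 1102 to 4315 in MCC. The sum of 4 epithelial markers stayed at or below 4.20 CPM in all libraries. *Gm42418* took 5.58 to 9.33% of the counts in bone, 10.9 to 20.2% in MCC and 24.1 to 39.4% in MC, and mitochondrial genes 20.4 to 36.0%, 19.4 to 27.7% and 26.3 to 38.1%. With both left out, the 5 members called between bone and MCC, the 6 between bone and MC and the 3 between MCC and MC all remained past the threshold. The part of the cell types above in the higher *Dusp4*, *Spry1*, *Dusp6*, *Spry4* and *Egr1* levels of bone, and in the other tissue differences, was not tested.

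*Etv4* was detected with 0 to 16 fragments per library. It had 1, 4 and 11 fragments in the *Fgfr2+/S252W* MC libraries and 0 in each of the 3 *Fgfr2+/+* MC libraries, where a count of 0 allows up to 0.116, 0.239 and 0.234 FPKM (3 fragments, counting error only). In MCC it had 1, 0 and 0 fragments in mutants and 1, 2 and 7 in controls. With no filter (25857 genes), *Etv4* did not pass by genotype in bone, MC or MCC (limma adjusted p = 0.910, 0.0806 and 0.959). In the same fit it was higher in bone than in MCC (log2 1.83, SE 0.56, limma adjusted p = 0.0192), as were 16.5% of all genes, and did not pass between the other tissues. At 0 to 16 fragments these fitted values depend on the count added before the log.

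The 7 tested members did not follow one pattern over the 18 libraries. The measure of likeness was Pearson's correlation of log2 CPM over 18 libraries, which shares tissue and depth as sources and is given as a description. *Egr1* and *Spry4* were most like each other among the members (r = 0.81), and for both the most similar gene that is no member was *Sp1*, with r of 0.88 for *Egr1* and 0.85 for *Spry4*. For *Dusp6* the closest member was *Egr1* (0.75) and the closest other gene *2900026A02Rik* (0.92). *Etv5* was closest to *Fam160a1* (0.81) and among members to *Egr1* (0.73). *Spred2* was closest to *Hunk* (0.97), *Spred1* to *Rap2c* (0.91) and *Spry2* to *Snord89* (0.91). The best member for *Spred1* was *Etv5*, at only 0.28.

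The rest of the pathway was read from 6 lists of genes. In limma none of their genes passed by genotype in any tissue, nor in an interaction. The lists hold 13 FGF receptors and adaptors (11 tested), 11 genes of the RAS-RAF-MEK-ERK cascade (10 tested), 10 other feedback inhibitors (5 tested), 5 other MAP kinase phosphatases (3 tested), 17 other inducible transcription factors (13 tested) and 4 other ERK output genes (all tested). In bone, 1 receptor or adaptor gene, 1 cascade gene, 1 feedback inhibitor, 2 transcription factors and 1 output gene had an unadjusted p below 0.05, a threshold met by 8.13% of all genes. The gene with the smallest p in bone was *Etv1* among the transcription factors, an ETS factor of the same family as *Etv4* and *Etv5*, with a log2 difference of 0.74 (SE 0.26, limma adjusted p = 0.423). *Errfi1*, an inhibitor of EGF receptor signaling, led the feedback list (0.56, SE 0.24, limma adjusted p = 0.557), *Sos1* the adaptors (0.35, SE 0.15, limma adjusted p = 0.542), *Hras* the cascade (-0.54, SE 0.25, limma adjusted p = 0.605) and the cyclin gene *Ccnd1* the output genes (-0.72, SE 0.27, limma adjusted p = 0.473).

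Between tissues, genes of these lists passed in both directions. *Fgfr2*, the mutated receptor, was highest in MC, with log2 differences of -0.72 (SE 0.14, limma adjusted p = 0.000560) for bone against MC and -1.59 (SE 0.15, limma adjusted p = 6.99e-08) for MCC against MC, or -0.61 and -1.46 without *Fgfr2+/+* MC replicate 1. Counts cannot separate its mutant from its wild-type transcripts. Between bone and MCC, 24.2% of all genes were higher and 22.6% lower in bone. Of the 11 receptor and adaptor genes tested, 3 were higher and 4 lower in bone, with *Fgfr3*, the receptor of growth plate chondrocytes, at -3.37 (SE 0.17, limma adjusted p = 1.53e-10), *Fgfrl1* at -3.27 and *Gab1* at -1.09. *Fgfr3* had 4.91 to 8.32 FPKM in bone and 48.2 to 81.3 FPKM in MCC. Of the 10 cascade genes tested, 3 were lower in bone than in MCC, among them the kinase genes *Araf* (-1.75) and *Mapk3* (-0.52), and 0 were higher. Of the 5 other feedback inhibitors, 2 were higher in bone than in MCC, *Rasa1* (1.14) and *Errfi1* (0.96), and 0 were lower. Of the 13 transcription factors, 5 were higher in bone and 2 were lower, with *Etv1* at 3.51 (SE 0.42, limma adjusted p = 2.20e-06), *Fosl2* at 0.73 and *Klf4* at -0.81. Among the phosphatases, *Dusp8* was lower in bone (-2.94, SE 0.29, limma adjusted p = 3.14e-07), opposite in sign to *Dusp4* and *Dusp6*.

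**Figure D4:**
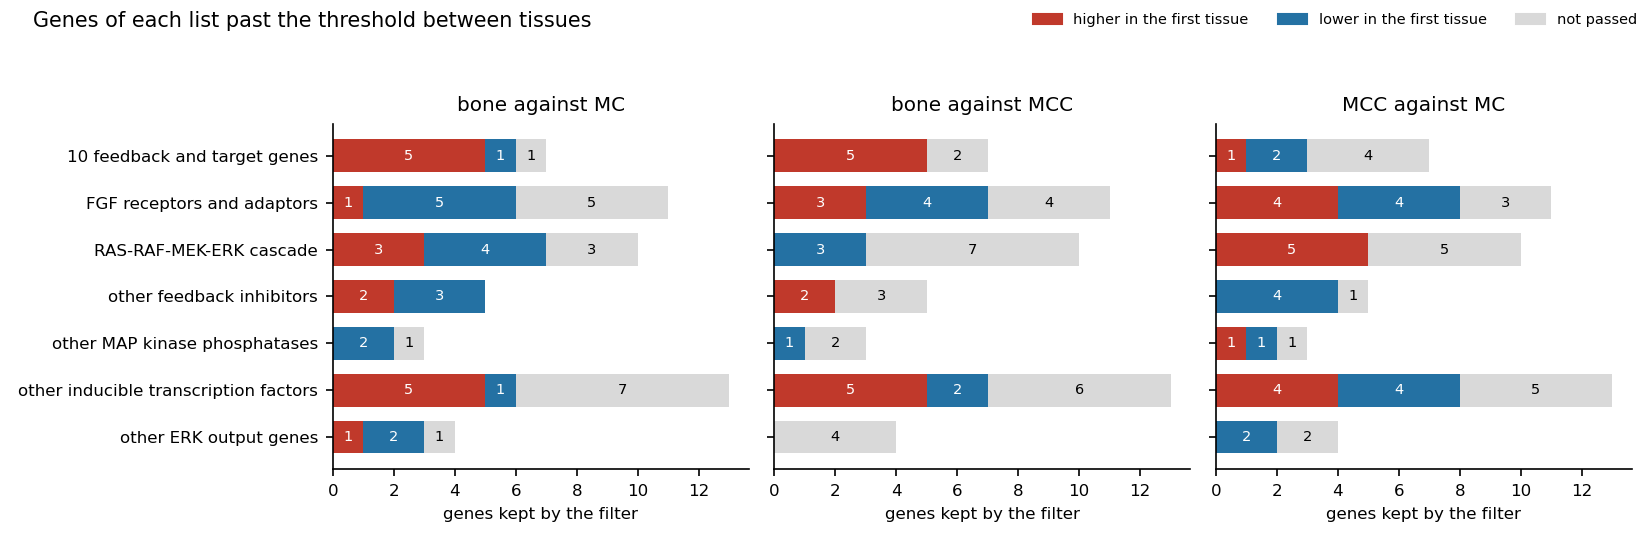
Number of genes past the threshold in each list (horizontal axis, genes kept by the filter) for the 3 tissue comparisons, higher in the first tissue in red, lower in blue and not passed in gray. The 7 tested feedback and target genes hold 5 higher and 0 lower between bone and MCC, and the cascade holds 0 higher.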

How the data were processed

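Laser-captured tissue of 6 embryos gave 18 libraries, whose RNA was amplified before paired-end sequencing. The authors aligned reads to mm10 with STAR and deposited raw counts of fragments per gene from featureCounts, made without strand. Amplified fragments are not independent molecules, so floors of 3 fragments cover counting error only.

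Genes had to exceed 1 FPKM, computed without TMM factors, in 50% or more of the libraries, which left 11469. Genotypes were compared with TMM factors, voom and limma 3.58.1 on group means (R 4.3.3), and tissues and interactions with the embryo as a term, with Benjamini-Hochberg adjustment at 0.05 over all genes kept. No replicate numbers pair the genotypes. Alternatives used edgeR 4.0.16, DESeq2 1.42.0, other filters and factors, sample weights and left-out libraries. The scripts were tested on simulated counts. Members, lists and tests were chosen with earlier results of these data known. Members are all reported. Other pathway genes were named for genotype in bone (the smallest p of each list) and for bone against MCC (up to 3 genes past the threshold with the smallest p), with *Fgfr2* as the mutated gene. Some results for single genes are not reported here.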

Additional observations from a re-analysis of the deposited data

Results flagged for a closer look

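The mean *Etv4* level was 0.411 FPKM higher in *Fgfr2+/S252W* than in *Fgfr2+/+* libraries of MC and lower in MCC, by a difference of -0.112 FPKM, and the libraries of the genotypes had the same order as the means in both tissues. These values do not establish a difference. They rest on 0 to 11 fragments per library, and all 3 control MC libraries had 0 fragments, which allows up to 0.116, 0.239 and 0.234 FPKM, above the mutant MC library with 1 fragment (0.0557 FPKM). In MCC 2 mutant libraries had 0 fragments, which allows up to 0.107 and 0.160 FPKM, and the remaining mutant library and 1 control library had 1 fragment each (0.0279 and 0.0313 FPKM). With no filter, the difference between the tissues did not pass (interaction of MCC and MC, log2 -5.26, limma adjusted p = 0.169).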

How the results depend on the processing

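No member passed by genotype in MC or MCC, or in an interaction, under any alternative run. In bone, where 0 passed over 18 libraries, the 6 bone libraries alone gave 1 with limma, 1 with edgeR, 2 with DESeq2, 2 with the replicate block (*Dusp4* beside *Egr1* in both), and 0 to 3 with 1 library left out. All 3 (*Egr1*, *Dusp4* and *Etv5*) passed only without *Fgfr2+/+* replicate 3, a fit in which 1370 of all 11992 genes tested passed. Between bone and MC, 6 passed, 2 in *Fgfr2+/+* embryos alone, 3 in *Fgfr2+/S252W* embryos alone 8 without *Gm42418* and mitochondrial genes, and 3 to 5 with 1 library left out. Between bone and MCC, 5 passed, 8 with no filter and 5 to 6 with 1 library left out. Between MCC and MC, 3 passed, 5 with filterByExpr, with no filter or without *Gm42418* and mitochondrial genes, and 3 to 6 with 1 library left out. The cause was not tested, except that filterByExpr and the fit without *Gm42418* and mitochondrial genes also test *Spry1* and *Dusp4*, and no filter tests *Etv4* as well, which passed for bone against MCC.

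The sign of some log2 differences changed. For genotype these were *Spry2* in bone with filterByExpr (0.0068), no filter (0.048) and without *Gm42418* and mitochondrial genes (0.015), *Dusp6* in MCC with sample weights (0.12), and *Egr1* in MCC with edgeR (0.34) and DESeq2 (0.38). Between tissues these were *Spry2* for bone against MC with no filter (0.0061) and in *Fgfr2+/+* embryos alone (0.26), and for MCC against MC *Spry4*, at -0.75 over both genotypes, in *Fgfr2+/+* (0.67) and *Etv5* in *Fgfr2+/S252W* embryos alone (0.16). The cause was not tested.

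With 1 library left out, genotype differences that changed sign ranged from -0.36 to 0.25 for *Spry2* and -0.036 to 0.42 for *Dusp6* in bone. In MC they ranged from -0.21 to 0.062 for *Spred1*, -1.25 to 0.35 for *Dusp6*, -0.32 to 0.81 for *Etv5* and -0.18 to 1.68 for *Egr1*. In MCC they ranged from -0.10 to 0.54 for *Spry2*, -0.99 to 0.076 for *Spry4*, -0.022 to 0.25 for *Spred1*, -0.083 to 0.53 for *Spred2*, -0.47 to 0.31 for *Dusp6* and -1.14 to 0.58 for *Egr1*. In the filterByExpr fit they ranged from -0.94 to 0.092 for *Spry1* and -2.76 to 0.22 for *Dusp4* in MC and from -0.61 to 0.18 and -2.14 to 0.14 in MCC. *Spry2* for bone against MC ranged from -0.74 to 0.49, *Etv5* for MCC against MC from -0.59 to 0.094, and the interaction of *Egr1* from -0.17 to 1.5 for bone against MC and from -1.89 to 0.14 for MCC against MC.

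Same-numbered libraries of the genotypes correlated at -0.17 to 0.31 in their deviations, so the replicate numbers were not taken as pairs. Without the embryo term the tissue comparisons gave 6, 5 and 3 members, as with it. With the replicate block 0 members passed in the fit of 18 libraries, *Egr1* in MCC was at 0.040, and at 0.065 in the MCC libraries alone. *Egr1* in the bone libraries alone was at 1.11 with the block (limma adjusted p = 0.000727).

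All-gene counts also moved. For genotype in bone 10 genes passed, with 0 to 1370 over the alternatives, in MC 0, with up to 423, and in MCC 0, with up to 7. Between tissues 5657 passed for bone against MC, with 3668 to 12952, 5370 for bone against MCC, with 3448 to 8036, and 6613 for MCC against MC, with 5159 to 10564. Interactions gave 4 (0 to 68), 0 (0 to 6) and 0 (0 to 40). With no filter the median over all genes shifted by more than 0.1 log2 units, to -0.39 for bone against MC, -0.17 for bone against MCC, -0.41 for MCC against MC, 0.15 for genotype in MC and -0.13 for the interaction of bone and MC. *Dusp4*, *Etv4* and *Spry1* had few fragments in the cartilages, which limits what can be measured there.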
